A study of Mus musculus with 17 samples.

Results

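The 10 genes described here encode axonemal dynein heavy chains of the mouse: Dnah1, Dnah2, Dnah3, Dnah5, Dnah6, Dnah7a, Dnah8, Dnah10, Dnah12 and Dnah17. They were taken by name from a gene table of 24594 genes. RNA was sequenced from cells of C57BL/6JRj mouse testes, sorted by flow cytometry into 5 stages of male germ cell development with 3 libraries each. The stages are leptotene and zygotene spermatocytes (LZ), pachytene and diplotene spermatocytes (PD), round spermatids (RS), and early (EES) and late (LES) elongating spermatids. These 15 libraries came from wild-type males of 3 months, without treatment in the labels, and were sorted after staining with Hoechst 33342 and SYTO 16. A pair of single libraries was sorted after Hoechst alone: RS23, titled as round spermatids of juveniles at 23 days, and PrmES, titled as elongating spermatids sorted by a Prm1-EGFP reporter. For this pair the other labels also give 3 months and wild type, which differs from the titles. No label says that libraries of a stage came from separate animals, so the p-values cover the spread among libraries only, and that spread may be a technical one.

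Axonemal dynein arms are the motors that bend cilia and sperm tails. Outer arms set beat frequency and power, inner arms shape the wave, and each arm is built around 1 or more very large heavy chains that burn ATP and walk along the neighbouring microtubule doublet. Different heavy chains are known to serve the same arm position in different cells: DNAH5 in airway cilia and DNAH8 in sperm flagella at one outer-arm position, and DNAH9 or DNAH11 in cilia and DNAH17 in sperm at the other. Germ cells make the tail after meiosis, and transcription stops as the nucleus condenses in elongating spermatids.

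Levels are given in RPKM, the reads on each kb of exon in a library scaled to 1 M (mega) reads, and are compared between genes on that scale. Totals were 90.6 to 137.8 M reads in the 15 libraries, 159.2 M in RS23 and 149.2 M in PrmES. Stage markers went with the labels apart from a pair of libraries. Piwil1, a PIWI protein of pachytene cells, stood at 6.16, 9.06 and 62.5 RPKM in the LZ libraries, so LZ replicate 3 lay toward PD (104 to 127 RPKM). Acrv1, an acrosomal protein of round spermatids, stood at 3.05, 95.2 and 8.14 RPKM in the EES libraries, so EES replicate 2 lay above the RS libraries (26.1 to 35.7 RPKM). The summed level of 10 Sertoli cell markers ranged from 68.0 to 137 RPKM in LZ libraries, against 1.09 to 1.5 (PD), 2.06 to 3.39 (RS), 8.62 to 27.6 (EES) and 16.3 to 60.5 (LES). Protamines and transition proteins, 5 genes of late spermatids, summed to 755 to 1243 RPKM in LZ, 61.4 to 243 in PD, 671 to 1452 in RS and at least 45865 in EES and LES, so LZ held more of this RNA than PD. The part of Sertoli and late spermatid RNA in the results below was not tested. A list of 5 Leydig cell markers summed to at most 6.61 RPKM in the 15 libraries. For multiciliated cells, which also hold axonemal dyneins, the sum of 10 markers, Dnah9 and Dnah11 among them, was 5.0 to 5.89 RPKM in RS, 2.06 to 7.15 in EES and between 1.55 and 3.10 in LZ, PD and LES. In RS, 4 of the 10 stayed under 0.1 RPKM in all libraries and 1, Fam216b, was at 0, while in PD 7 stayed under 0.1 and 3 were at 0. Only Ccno and Cdc20b reached the level asked of tested genes. Ccno, a cyclin-like protein of multiciliated cells, stood at 0.282 to 0.594 RPKM in PD and 2.06 to 2.28 in RS, and rose by 2.22 ± 0.48 on the log2 scale (limma adjusted p = 0.00184).

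The summed RNA level of the heavy chains was highest in PD, followed by RS. The 10 levels summed to 47.2 ± 39.5 RPKM in LZ, 388 ± 39.8 in PD, 248 ± 29.6 in RS, 65.7 ± 34.9 in EES and 50.9 ± 6.90 in LES (mean ± SD, n = 3 each). In PD, 0.675% ± 0.0670 of all reads of a library fell on these 10 genes, against 0.0802% ± 0.0700 in LZ and 0.0801% ± 0.0112 in LES. Dnah8 alone made 44.4% ± 0.623 of the summed level in PD, and Dnah17 14.8% ± 0.829. In bulk libraries fewer cells of a type and less RNA per cell cannot be told apart. Dnah1, Dnah2, Dnah8, Dnah12 and Dnah17 followed this course. Dnah6 and Dnah10 were also high in PD and RS but had the higher mean in RS, with PD and RS overlapping for Dnah6. Dnah3, Dnah5 and Dnah7a departed further, in ways described below.

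**Figure D1:**
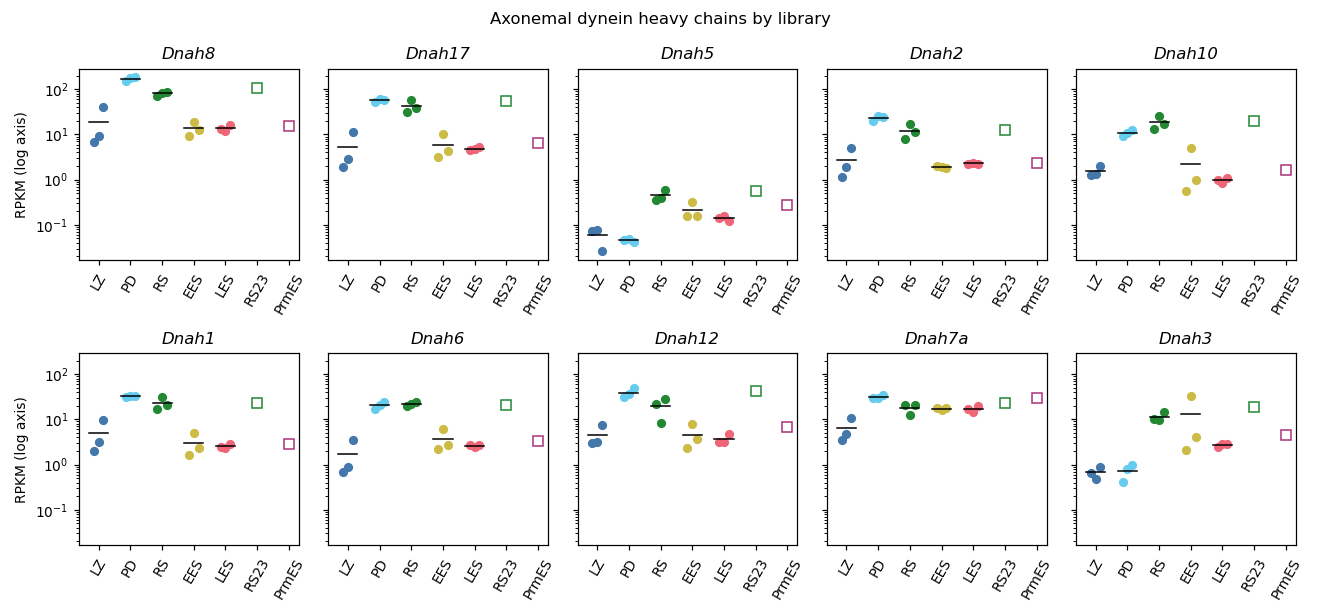
RPKM of each heavy chain on a log axis, with 1 filled point per library of the 5 stages, a bar at the stage mean, and open squares for the single libraries RS23 and PrmES. Dnah8 is the highest chain in PD at 154 to 185 RPKM, Dnah5 stays under 0.6 RPKM, and Dnah3 is low until RS.

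Dnah8 encodes the outer-arm heavy chain known from sperm (gene ID 13417, chr17:30626935-30875762, plus strand, GRCm38.p6). Its level was 6.73, 9.42 and 41.6 RPKM in the 3 LZ libraries, 154, 178 and 185 in PD, and 71.6, 84.0 and 87.1 in RS. In elongating spermatids it was 9.34, 19.4 and 12.5 RPKM in EES and 13.3, 11.7 and 16.6 in LES. Every PD library lay above every library of the other stages, and every RS library above every LZ, EES and LES library, of which LZ replicate 3 came nearest. On the log2 scale Dnah8 rose by 3.63 ± 0.51 (SE) from LZ to PD (limma adjusted p = 2.86e-05) and by 4.43 when LZ replicate 3 was left out. From RS to EES it fell by 2.62 ± 0.51 (limma adjusted p = 0.000408). The step from PD to RS was -1.09 ± 0.51 and missed the threshold (limma adjusted p = 0.1), but passed it without LZ replicate 3 (limma adjusted p = 0.00348).

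Dnah17, the sperm-type heavy chain at the other outer-arm position (gene ID 69926, chr11:118021723-118130719, minus strand), was below Dnah8 in every library. It stood at 1.94, 2.87 and 11.1 RPKM in LZ, 52.6, 61.0 and 58.6 in PD, and 31.8, 58.8 and 37.9 in RS. EES had 3.24, 10.1 and 4.30 RPKM, and LES 4.52, 4.70 and 5.40. PD and RS overlapped through RS replicate 2, and both lay above every library of LZ, EES and LES. Dnah17 rose by 3.85 ± 0.54 (log2) from LZ to PD (limma adjusted p = 3.08e-05; 4.60 without LZ replicate 3) and fell by 2.99 ± 0.54 from RS to EES (limma adjusted p = 0.000244).

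Dnah5, the outer-arm heavy chain of airway and other motile cilia (gene ID 110082, chr15:28154854-28472045, plus strand), was scarce throughout. Its level was 0.0724, 0.0777 and 0.0258 RPKM in LZ, 0.0470, 0.0481 and 0.0428 in PD, and 0.350, 0.398 and 0.596 in RS. EES had 0.157, 0.315 and 0.158 RPKM, and LES 0.145, 0.154 and 0.122. These levels rest on 40 to 123 reads per library in LZ and 81 to 92 in PD, against 591 to 1236 in RS. All RS libraries lay above all others, so the little Dnah5 RNA there was peaked in round spermatids and not in PD. Dnah5 did not reach the 1 RPKM in 3 libraries asked of tested genes. In the fit of all 24594 genes without that filter it rose from PD to RS by 3.00 ± 0.37 on the log2 scale (limma adjusted p = 9.76e-05; 29% of all genes were called there in either direction). The sum of multiciliated cell markers was also higher in RS than in PD, but its members did not move alike. Ccno, Cdc20b and Dnah9 were higher in RS, Dnah11 was lower, and 4 of the 10 stayed under 0.1 RPKM in all RS libraries. The part of such cells in the rise of Dnah5 was not tested. Dnah5 then fell by 1.10 ± 0.37 from RS to EES (limma adjusted p = 0.0277), and its step from LZ to PD was -0.19 ± 0.37 (limma adjusted p = 0.757).

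The sperm-type and the ciliary chain were compared as a ratio within each library, after 0.01 RPKM was added to both, which makes the ratios smaller where Dnah5 is scarce. The mean log2 ratio of Dnah8 to Dnah5 was 7.76 ± 2.11 in LZ, 11.58 ± 0.19 in PD, 7.50 ± 0.29 in RS, 5.98 ± 0.22 in EES and 6.52 ± 0.42 in LES (SD, n = 3). Dnah8 was above Dnah5 in 15 of 15 libraries, by 3071-fold in PD and 62.9-fold in EES (from the mean log2 ratio). The ratio differed between stages (exact permutation test over all 1401400 partitions of the 15 libraries, two-sided F, p = 0.0019, adjusted over 3 ratios 0.00299). Dnah17 to Dnah5 was also highest in PD and lowest in EES, with log2 ratios of 5.96 ± 2.02 in LZ, 6.53 ± 0.61 in RS, 4.64 ± 0.34 in EES and 5.02 ± 0.29 in LES, and a 1024-fold excess in PD (log2 SD 0.14; exact permutation p = 0.00199, adjusted 0.00299). With 1 RPKM added in place of 0.01, the range between stage means of Dnah17 to Dnah5 went from 5.36 to 3.51 on the log2 scale. The wide LZ spread comes from replicate 3, whose log2 ratio of Dnah8 to Dnah5 was 10.18 against 6.35 and 6.75. For a pair of single stages, 3 against 3 libraries cannot give an exact p under 0.1.

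Between the sperm-type pair, Dnah17 gained on Dnah8 in round spermatids. The log2 ratio of Dnah17 to Dnah8 was -1.80 ± 0.10 in LZ, -1.58 ± 0.06 in PD, -0.96 ± 0.39 in RS, -1.33 ± 0.34 in EES and -1.50 ± 0.16 in LES, and it differed between stages (exact permutation p = 0.0235, adjusted 0.0235). In RS the ratios were -1.17, -0.51 and -1.20, so replicate 2 stood above the other RS libraries, while all 3 lay above every LZ and PD library. Leaving out RS replicate 2 reduced the range between stage means from 0.84 to 0.62 (exact permutation p = 0.038).

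**Figure D2:**
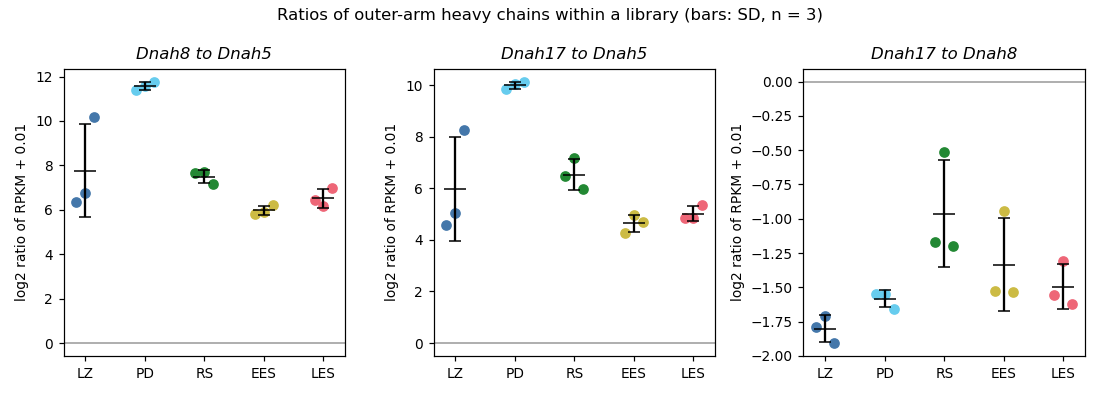
Log2 ratio of RPKM + 0.01 of outer-arm heavy chains within each library, by stage, with 1 point per library and bars for mean ± SD (n = 3). Both ratios to Dnah5 are highest in PD, and Dnah17 to Dnah8 is highest in RS.

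The ciliary counterparts of Dnah17 were also scarce. Dnah9 reached at most 0.598 RPKM (EES replicate 2) and Dnah11 at most 0.588 (PD replicate 3). Dnah17 exceeded the sum of both by 107-fold in PD and 9.77-fold in EES (from mean log2 ratios of 6.73 ± 0.24 and 3.29 ± 0.24). Dnah14, another axonemal heavy chain, was not analysed here.

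The start regions of Dnah8 and Dnah5, the outer-arm pair whose levels peaked in different stages, are shown for comparison: 250 bases before and 30 from a RefSeq start site (GRCm38.p6), in lower case. For Dnah5 this site, base 28203766, lies inside the gene, which begins at base 28154854. The Dnah5 window is therefore not the 5′ end of the gene as placed above. Dnah8 is at chr17:30626686-30626965 and Dnah5 at chr15:28203516-28203795, both plus strand and 5′ to 3′.
Dnah8: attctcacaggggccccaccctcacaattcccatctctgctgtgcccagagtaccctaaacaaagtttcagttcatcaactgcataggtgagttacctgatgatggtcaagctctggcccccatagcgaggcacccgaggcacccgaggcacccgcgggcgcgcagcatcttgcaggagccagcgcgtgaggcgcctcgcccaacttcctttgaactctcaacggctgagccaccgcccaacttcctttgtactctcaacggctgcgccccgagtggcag
Dnah5: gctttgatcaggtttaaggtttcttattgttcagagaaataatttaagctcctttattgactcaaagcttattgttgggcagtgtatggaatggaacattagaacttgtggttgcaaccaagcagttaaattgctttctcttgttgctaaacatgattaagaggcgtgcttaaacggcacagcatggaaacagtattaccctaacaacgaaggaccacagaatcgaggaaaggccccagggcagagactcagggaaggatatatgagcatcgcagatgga
Both windows lack the exact letters GTTGCC, a form of the RFX half-site, on either strand, and other forms were not searched. GC content was 60% in the Dnah8 window and 41.8% in that of Dnah5. The longest Dnah8 transcript assembled by the authors began 7116 bases downstream of this start site, so the window may not be where germ cells begin transcription. For Dnah5 the nearest assembled start lay 260523 bases downstream.

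The inner arm with a pair of heads is built from DNAH2 and DNAH10, and these partners had their highest mean level in different stages, Dnah2 in PD and Dnah10 in RS. Dnah2 (gene ID 327954, chr11:69420807-69549108, minus strand) stood at 1.12, 1.90 and 4.96 RPKM in LZ, 20.1, 25.2 and 24.9 in PD, and 7.84, 17.2 and 11.6 in RS. It then lay at 1.97, 1.88 and 1.84 RPKM in EES and 2.28, 2.36 and 2.27 in LES. All PD libraries were above all RS libraries for Dnah2. It rose by 3.40 ± 0.42 (log2) from LZ to PD (limma adjusted p = 1.02e-05; 3.99 without LZ replicate 3) and fell by 2.61 ± 0.42 from RS to EES (limma adjusted p = 9.88e-05).

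Dnah10 (gene ID 56087, chr5:124725085-124834308, plus strand) stood at 1.3, 1.36 and 2.05 RPKM in LZ, 9.23, 10.8 and 12.4 in PD, and 13.6, 25.4 and 16.9 in RS. EES had 0.553, 5.08 and 0.977 RPKM and LES 0.999, 0.824 and 1.09. All RS libraries were above all PD libraries for Dnah10, the reverse of Dnah2. The mean log2 ratio of Dnah10 to Dnah2 was -1.12 ± 0.11 in PD, 0.63 ± 0.14 in RS and -1.25 ± 0.23 in LES, given as values with no test. Dnah10 rose by 2.79 ± 0.59 from LZ to PD (limma adjusted p = 0.000844), while the step from PD to RS, 0.75 ± 0.59, missed the threshold (limma adjusted p = 0.336). It fell by 3.67 ± 0.59 from RS to EES (limma adjusted p = 8.95e-05), by 4.59 without EES replicate 2 and by 3.01 without EES replicate 1.

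Dnah1, Dnah6 and Dnah12 encode heavy chains of single-headed inner arms. Dnah1, best known from sperm with malformed tails in patients (gene ID 110084, chr14:31260375-31325891, minus strand), stood at 2.02, 3.22 and 9.91 RPKM in LZ, 30.8, 33.6 and 33.3 in PD, and 16.8, 30.9 and 20.8 in RS. EES had 1.65, 5.02 and 2.33 RPKM and LES 2.51, 2.36 and 2.86. RS replicate 2 reached the PD range, and every EES and LES library lay below every RS library. Dnah1 rose by 3.02 ± 0.50 from LZ to PD (limma adjusted p = 0.000133; 3.67 without LZ replicate 3) and fell by 3.04 ± 0.50 from RS to EES (limma adjusted p = 0.000119).

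Dnah6 (gene ID 330355, chr6:73017603-73222227, minus strand) had levels in PD and RS that overlapped. It stood at 0.683, 0.863 and 3.51 RPKM in LZ, 17.1, 20.4 and 24.1 in PD, and 19.5, 21.4 and 24.8 in RS. EES had 2.19, 6.24 and 2.73 RPKM and LES 2.69, 2.40 and 2.73. The step from PD to RS was 0.10 ± 0.51 (limma adjusted p = 0.901), and its sign turned to -0.14 when each library was centred on the median of tested genes. It rose by 3.98 ± 0.51 from LZ to PD (limma adjusted p = 1.34e-05; 4.71 without LZ replicate 3) and fell by 2.70 ± 0.51 from RS to EES (limma adjusted p = 0.000332).

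Dnah12 (gene ID 110083, chr14:26691554-26892719, plus strand) had 1 low library among the RS replicates. It stood at 2.98, 3.13 and 7.68 RPKM in LZ, 31.1, 37.0 and 49.2 in PD, and 21.7, 8.47 and 28.0 in RS. EES had 2.38, 7.85 and 3.59 RPKM and LES 3.14, 3.14 and 4.68. All RS libraries lay below all PD libraries, and RS replicate 2 came close to EES replicate 2. Dnah12 rose by 3.21 ± 0.52 from LZ to PD (limma adjusted p = 9.66e-05). It fell by 2.08 ± 0.52 from RS to EES (limma adjusted p = 0.00236), a call that was lost when libraries were centred on the median of tested genes (-0.64, limma adjusted p = 0.157).

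Dnah7a is a single-headed inner-arm chain with closely related genes Dnah7b and Dnah7c on the same chromosome (gene ID 627872, chr1:53396995-53707301, minus strand). Of the 9 tested members it alone was not called lower in LES than in RS. Dnah7b and Dnah7c, tested outside the 10 members, were not called there either. Dnah7a stood at 3.42, 4.65 and 11 RPKM in LZ, 29.1, 30.4 and 34.4 in PD, and 21.3, 12.2 and 20.4 in RS. EES had 17.5, 16.2 and 17.8 RPKM and LES 17.2, 14.6 and 19.9. RS, EES and LES overlapped fully, and all lay below PD. Dnah7a rose by 2.48 ± 0.36 from LZ to PD (limma adjusted p = 3.57e-05). The step from RS to EES was -0.02 ± 0.36 (limma adjusted p = 0.961), while the median of all tested genes moved by -1.42. With libraries centred on that median the same step became a rise of 1.43 (limma adjusted p = 0.00526), so its direction depends on the scaling. By LES, Dnah7a was the highest of the 10 chains, with 33.8% ± 1.32 of the summed level, against 8.08% ± 0.399 in PD. The log2 ratio of Dnah7a to Dnah8 went from -2.46 ± 0.08 in PD to 0.39 ± 0.59 in EES and 0.32 ± 0.06 in LES, given as values with no test.

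Dnah7b stood at 24.8 ± 3.94 RPKM in PD, 10.9 ± 3.84 in RS, 6.90 ± 0.335 in EES and 7.52 ± 1.24 in LES. Dnah7c stood at 39.8 ± 4.71, 16.4 ± 5.29, 18.0 ± 2.02 and 19.2 ± 2.39 RPKM in those stages. Both fell from PD to RS, Dnah7b by 1.24 ± 0.36 (limma adjusted p = 0.0125) and Dnah7c by 1.33 ± 0.38 (limma adjusted p = 0.011), a step that for Dnah7a missed the threshold. Neither was called from RS to EES (-0.59, limma adjusted p = 0.152, and 0.18, limma adjusted p = 0.667). From RS to LES neither was called, with log2 changes of -0.48 and 0.28. The 3 genes are uncertain as single genes: of the 50-base words of the longest Dnah7a coding transcript, 40.3% also occur in Dnah7b or Dnah7c, whereas none of the other heavy chains examined shared such a word. How reads that match several copies were counted is not given in the sources used here.

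**Figure D3:**
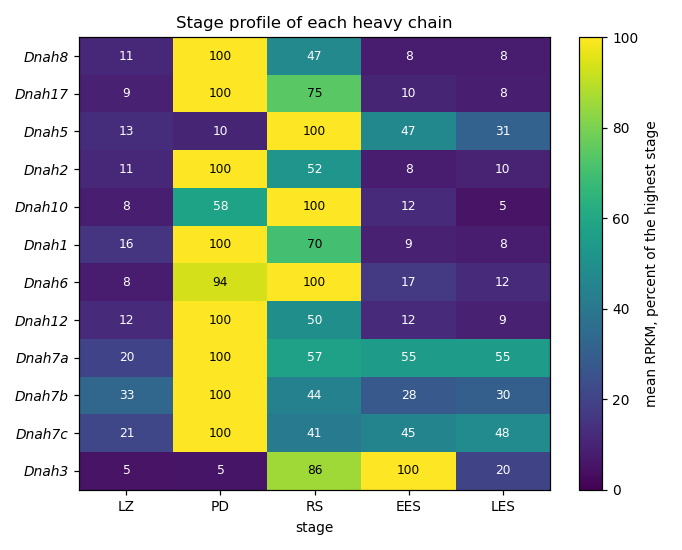
Mean RPKM of each heavy chain as a percent of its highest stage (n = 3 libraries a stage). Most chains peak in PD, and Dnah6 and Dnah10 peak in RS. Most drop in EES and LES, while Dnah7a and Dnah7c stay at 45.3% or more of their highest stage there. Dnah3 and Dnah5 are near their lowest in PD.

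Dnah3, also a single-headed inner-arm chain (gene ID 381917, chr7:119921332-120095297, minus strand), came on after meiosis. It stood at 0.661, 0.488 and 0.883 RPKM in LZ, 0.403, 0.809 and 0.981 in PD, and 9.96, 9.84 and 14.3 in RS. EES had 2.06, 33.7 and 4.16 RPKM and LES 2.49, 2.86 and 2.80. LZ and PD overlapped, every RS library was above both, and EES replicate 2 held the highest value of all. Dnah3 rose by 4.01 ± 0.74 from PD to RS (limma adjusted p = 0.000541), and the step from LZ to PD was 0.06 ± 0.74 (limma adjusted p = 0.952). From RS to EES the step was -0.76 ± 0.74 (limma adjusted p = 0.36). It turned to a fall of 1.93 past the threshold without EES replicate 2 (limma adjusted p = 0.000443) and to 0.08 without EES replicate 1. From RS to LES Dnah3 fell by 2.04 ± 0.74 (limma adjusted p = 0.0214), a call lost at a like size without LES replicate 1 (-1.98, limma adjusted p = 0.0527) and without RS replicate 3 (-1.86, limma adjusted p = 0.0641). It was lost at a smaller size with centring on the median (-0.50, limma adjusted p = 0.394) and with quantile normalization (-0.57, limma adjusted p = 0.256).

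Counted over the 10 genes, 8 rose from LZ to PD and none fell, where 25.5% of the 13260 tested genes rose and 35.8% fell. Dnah3 and Dnah5 were the exceptions. The median change of the 9 tested chains was 3.21 on the log2 scale, against -0.36 for all tested genes, and for those 8 chains every PD library was above every LZ library (34.8% of tested genes). Called genes split into 3375 rises and 4745 falls, and into 4443 and 3946 with centring on the median. The Sertoli and late spermatid marker sums, both higher in LZ, moved with this comparison.

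From PD to RS only Dnah3 rose among the tested chains and none fell, where 23.4% of tested genes rose and 15.2% fell. Another 3 chains had an unadjusted p under 0.05 with lower values in RS: Dnah2, Dnah7a and Dnah12. The median change of the 9 chains was -0.56, against 0.02 for all tested genes. All RS libraries lay below all PD libraries for 4 chains (34.8% of tested genes). Fitting PD and RS alone called falls of Dnah2 (limma adjusted p = 0.0106), Dnah8 (0.000113) and Dnah12 (0.0374), and centring on the median added Dnah7a, so the count of falls rests on how the spread and the scale are set. All genes called split into 3107 rises and 2017 falls, and into 2895 and 2912 with centring.

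From RS to EES 7 of the 9 tested chains fell, where 54.9% of tested genes fell. The median change of the chains was -2.62, against -1.42 for all tested genes, a difference of -1.20. Dnah3 and Dnah7a were not called, and Dnah5 fell in the fit without a filter on low levels (48.8% of all genes called in either direction). With centring on the median 6 fell and 1 rose, where 28% of tested genes fell and 32.5% rose. From RS to LES 8 of the 9 fell, all but Dnah7a, where 55.4% of tested genes fell, and centring left 5 falls and 1 rise, where 27.5% fell and 35.3% rose. Quantile normalization left 5 falls, where 34.5% of tested genes fell.

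From EES to LES limma called 0 of the 9 chains and 0.00754% of tested genes. None of the 9 had an unadjusted p under 0.05, and voom on recovered reads also called 0. The F test over the 5 stages called 9 of 9, where 97.2% of tested genes were called.

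**Figure D4:**
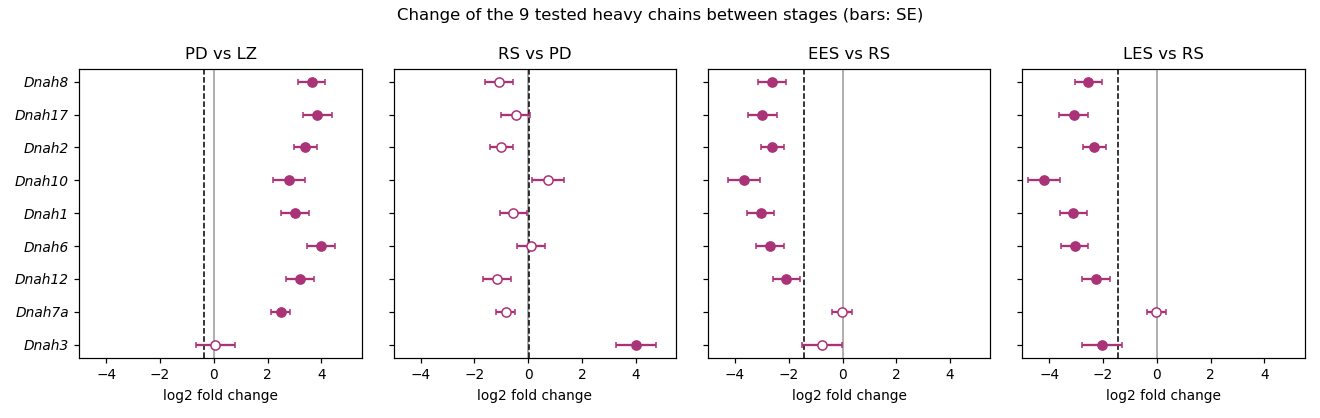
Log2 fold change ± SE of the 9 tested heavy chains in 4 comparisons, later stage minus earlier, with filled points for chains past the threshold and a dashed line at the median of all tested genes. All 9 chains lie to the right of the dashed line from LZ to PD, with Dnah3 nearest to it, and Dnah7a stays near 0 from RS to EES and LES.

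Round spermatid replicate 2 stood apart for the heavy chains in a graded way. Compared with the mean of RS replicates 1 and 3, on the log2 scale, its values were higher by 0.72 for Dnah1, 0.85 for Dnah2, 0.74 for Dnah10 and 0.76 for Dnah17. For the other chains they were 0.09 for Dnah8, -0.04 for Dnah6, -0.20 for Dnah5, -0.28 for Dnah3, -0.77 for Dnah7a and -1.54 for Dnah12. This order followed the GC content of the transcripts: 53.4% to 55.0% in the former 4 genes, 47.1% to 48.0% in Dnah3, Dnah5, Dnah6 and Dnah8, 44.7% in Dnah7a and 41.9% in Dnah12. Pearson's r of the deviation from the stage mean with GC content was 0.967 over the 10 chains and 0.508 over 11617 tested genes with a GC value, as a description within this library. In the other stages r over the 10 chains lay between -0.389 and 0.382. Over the tested genes, r in libraries other than RS replicate 2 ran from -0.382 (RS replicate 1) to 0.222 (LES replicate 2). The cytoplasmic heavy chains were placed likewise: Dync1h1, at 53.7% GC, by 0.72 and Dync2h1, at 43.4% GC, by -1.08. The part of GC content in the comparisons with RS was not tested.

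**Figure D5:**
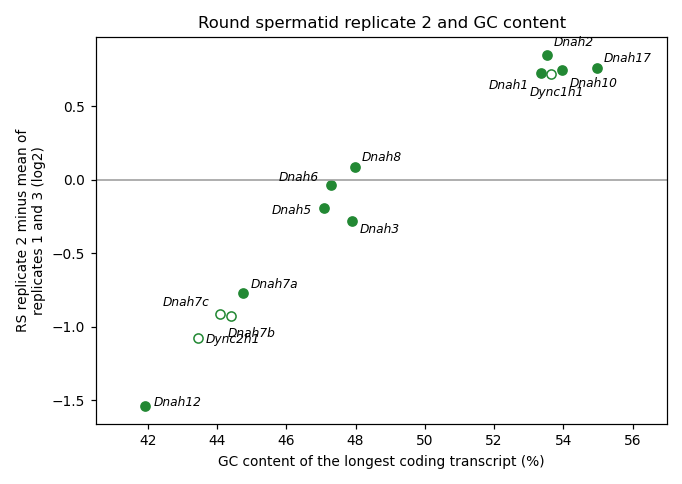
Deviation of round spermatid replicate 2 from the mean of replicates 1 and 3 (log2) against the GC content of the longest coding transcript in percent, with filled points for the 10 chains and open points for Dnah7b, Dnah7c, Dync1h1 and Dync2h1. Points run from Dnah12 at 41.9% GC and -1.54 to Dnah17 at 55.0% GC and 0.76.

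In the single libraries, too, Dnah8 stood above Dnah17 and Dnah17 above Dnah5. RS23 had 104 RPKM of Dnah8, 55.6 of Dnah17 and 0.552 of Dnah5. It lay above all RS libraries for 4 chains, where 32.8% of tested genes did, and within their range for the other 6. Dnah12, at 41.7 RPKM, and Dnah3, at 18.7, were among the 4. PrmES had 15.5 RPKM of Dnah8, 6.64 of Dnah17 and 0.272 of Dnah5. It lay above all 6 elongating spermatid libraries for Dnah2 (2.38 RPKM, against at most 2.36) and Dnah7a (30 RPKM, the highest chain of that library), where 24.6% of tested genes did, and within their range for the other 8. The column names of the gene table give this pair another prefix than the 15 libraries. With 1 library each, no test was made, and age, reporter, stain, sort and whatever the prefix marks cannot be told apart.

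Most of the listed genes for the rest of the dynein arm rose from LZ to PD, where 25.5% of all tested genes rose and 35.8% fell. Of 8 intermediate and light chains of the outer arm, 6 rose from LZ to PD and 1 fell. Dnaic2, an intermediate chain, went from 1.29 ± 0.765 to 30 ± 5.06 RPKM (log2 4.69 ± 0.42, limma adjusted p = 6.33e-07), Dynlrb2, a light chain, rose by 4.08 and Nme8, a thioredoxin-domain subunit, by 3.45. Dynll2, a light chain shared with other motors, fell by 3.72. Of 6 docking genes 4 rose, among them Ttc25 (3.97), Armc4 (3.44) and Ccdc151 (2.76), and Efcab1 fell by 1.32. All 5 inner-arm partners rose, led by Ttc29 (4.36), Wdr63 (4.19) and Dnali1 (3.82).

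Of 19 factors listed for the assembly or delivery of arms 16 rose, with Zmynd10 at 4.50, Daw1 at 3.81 and Dnaaf1 at 3.67. None of these assembly factors fell (17 had an unadjusted p under 0.05, all higher in PD). Of 10 genes of the axonemal ruler and the nexin link 9 rose, with Ccdc40 at 4.51, Drc1 at 4.43 and Drc7 at 4.29. Over all tested genes 25.5% rose and 35.8% fell in this step. Median changes were 2.41 for the outer-arm partners, 2.68 for docking genes, 3.82 for inner-arm partners, 2.55 for assembly factors and 3.51 for the ruler and link, against -0.36 for all tested genes. The cytoplasmic heavy chains Dync1h1 and Dync2h1, which carry cargo in the cell body and in growing cilia, moved by 0.60 and 0.59 and were not called (0 of 2, none with an unadjusted p under 0.05).

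From RS to EES falls were the more common call in these lists, as they were over all tested genes. Falls were called for 18 of the 19 assembly factors, 9 of the 10 ruler and link genes, 5 of the 8 outer-arm partners, 4 of the 6 docking genes, 3 of the 5 inner-arm partners and both cytoplasmic heavy chains, with 54.9% of all tested genes falling. For outer-arm partners, docking genes and inner-arm partners the share lay near that of all tested genes, and no weight is put on it. Median changes were -3.05 for assembly factors, -3.40 for the ruler and link and -3.20 for outer-arm partners. They were -2.16 for docking genes and -1.21 for inner-arm partners, against -1.42 for all tested genes. Among the outer-arm partners the light chain Dynlrb2 fell by 3.56 and 2 genes rose, and among the docking genes 1 rose. Dynll2 rose by 3.62 ± 0.38 to 179 ± 44.3 RPKM in EES (limma adjusted p = 2.57e-06), and Efcab1, the calcium-binding docking protein calaxin, rose by 5.19 ± 0.38 from 0.551 ± 0.196 to 21.2 ± 8.92 RPKM (limma adjusted p = 1.78e-07). Nme8 stood at 77.0 ± 18.8 RPKM in RS and 130 ± 25.6 in EES, a step of 0.77 ± 0.33 that stayed under the fold asked for. Ccdc63, a docking protein known from sperm and named after its values were seen, rose from PD to RS by 5.38 ± 0.58 (limma adjusted p = 6.11e-06).

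Transcription factors known for cilia or male germ cells did not move as a group. Of 9, 4 rose from LZ to PD, among them Rfx4 (3.01), Tcfl5 (2.15) and Rfx2 (2.03), a factor required for spermatid development, and 2 fell, with Rfx1 at -3.01. Over all tested genes 25.5% rose and 35.8% fell there, and with 9 genes no weight is put on the difference. Foxj1, the master factor of motile cilia, is named after its values were seen. It stood at 0.885 to 1.72 RPKM in PD and 59.8 to 71.7 in RS, a rise of 5.85 ± 0.70 (limma adjusted p = 1.47e-05).

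RFX factors bind a motif whose half-site can read GTTGCC, and these exact letters were searched on both strands of the RefSeq start windows. Other forms of the half-site were not searched, so a window without these letters may still hold an RFX site. A window was available for 9 of the 10 chains, all but Dnah3. Each is at a single RefSeq start site, which need not be the outer end of the gene. GTTGCC was present in Dnah10 and Dnah7a, that is 2 of 9, against 11.8% of the 32851 windows of all genes. Both windows are printed because they hold the match and because the assembled transcripts begin near them, 2 bases upstream of the RefSeq start for Dnah10 and 255 upstream for Dnah7a. Dnah10 is at chr5:124724835-124725114 on the plus strand and Dnah7a at chr1:53706755-53707034 on the minus strand (GRCm38.p6), each 5′ to 3′ with only the searched letters in capitals.
Dnah10: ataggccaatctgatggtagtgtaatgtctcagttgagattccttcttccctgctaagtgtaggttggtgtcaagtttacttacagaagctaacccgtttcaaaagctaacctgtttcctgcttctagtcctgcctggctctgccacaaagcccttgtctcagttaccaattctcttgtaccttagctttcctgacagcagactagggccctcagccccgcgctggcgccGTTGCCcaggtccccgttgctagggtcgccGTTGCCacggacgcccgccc
Dnah7a: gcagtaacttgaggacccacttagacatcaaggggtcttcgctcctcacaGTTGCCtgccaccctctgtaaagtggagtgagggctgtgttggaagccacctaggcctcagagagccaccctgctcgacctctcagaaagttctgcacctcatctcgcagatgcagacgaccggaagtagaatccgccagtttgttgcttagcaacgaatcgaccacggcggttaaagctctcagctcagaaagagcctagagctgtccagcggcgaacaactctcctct
The Dnah10 half-sites begin 20 bases before and 10 after the RefSeq start site, and that of Dnah7a begins 200 before it. Since the assembled Dnah7a start lies 255 bases upstream of the RefSeq start, this half-site is downstream of the assembled start. A cAMP response element, TGACGTCA, was present in Dnah6 alone, 1 of 9 against 1.74% of all windows. The MYB core AACTG, which overlaps the half-site in the Dnah7a window, was present in 6 of 9 against 42.8%. An assembled start lay within 300 bases of the RefSeq start for 4 of the 9 chains. A match describes these letters only.

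Among protein-coding genes with a highest stage mean of at least 1 RPKM, those most like Dnah8 over the 15 libraries were Cdkl4 (Pearson's r = 0.996), Lef1 (0.995), Vamp5 (0.994), Ndufaf3 (0.991) and Pde10a (0.991). For Dnah17 they were Abcc12 (0.995), Cox8c (0.995), Ttc12 (0.995), Slc26a10 (0.994) and Aqp9 (0.994). For Dnah5 they were C1qtnf3 (0.959), Zfp458 (0.951), Tpte (0.946), Myh15 (0.943) and Tmem63c (0.943). Among the chains, r lay between 0.855 and 0.982 over the 21 pairs of Dnah1, Dnah2, Dnah6, Dnah8, Dnah10, Dnah12 and Dnah17. Dnah3 and Dnah5 had r = 0.894 with each other, and -0.01 and -0.10 with Dnah8. These values are descriptions: all genes share the same libraries, stages and depths.

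The authors' assembly bears on what each level measures. It held transcripts over 86.5% to 100% of the annotated exon length of Dnah1, Dnah2, Dnah3, Dnah6, Dnah7a, Dnah10, Dnah12 and Dnah17, and 56.6% of that of Dnah8, whose longest assembled transcript had 95 exons and 17074 bases. Of Dnah5 only 1.32% of the exon length was assembled, as 1 gene of 330 bases and 2 exons far inside the gene. The assembled Dnah7a gene had 5 transcripts, among them one of 6051 bases and 17 exons that started inside the gene. Assembled genes on the opposite strand shared exon bases with Dnah1 (2958 bases), Dnah17 (2351), Dnah10 (1848), Dnah3 (998) and Dnah8 (603). Whether reads were counted by strand is not given in the sources used here, and without strand such reads cannot be told apart from those of the heavy chain.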

How the data were processed

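RNA of 17 sorted germ cell libraries was sequenced. STAR, Trim Galore and the builds GRCm38 and mm10 are listed per the submitters' processing notes. Which tool counted reads, and how it treated strand and reads with several matches, is not given in the sources used here. Values per gene were deposited by the authors on a log2 scale, as log2 of 100 times RPKM plus 1, which puts the pseudocount at 0.01 RPKM, and this scale was checked on the values. The de novo table gave whole reads for 100% of its genes (within 0.01 of a read) at the exon lengths of the assembly. In the gene table lengths are not listed, so the check is weaker there: the annotated exon length gave whole reads for 17361 of 24594 genes and 8 of the 10 members (not Dnah8 and Dnah10), and a length fitted for this purpose was used for the rest. The deposited transcript annotation was assembled with StringTie 1.3.4d, per the file headers. It was used for positions, for the exon lengths of assembled genes and, through these lengths, for the library totals. Depth was 90.6 to 159.2 M reads per library, recovered from the de novo table, and limits mainly Dnah5.

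Genes of at least 1 RPKM in at least 3 of 15 libraries were tested (13260 genes, 9 of the 10 heavy chains). The 15 libraries of 5 stages entered 1 fit in limma 3.58.1 (R 4.3.3; eBayes with trend). A gene was called at a log2 change of 1 or more in size with an adjusted p under 0.05 (Benjamini-Hochberg, all tested genes). Ratios within a library were tested by exact permutation, with Python 3.11.15. Test code was checked on simulated data. RS23 and PrmES, 1 library each, entered no test. Sequences are from RefSeq (GRCm38.p6), and exons and GC content from GENCODE M21.

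The members, lists and tests were chosen with earlier results of these data known. All 10 members are named, with the other heavy chains; of each list of partner genes, up to 3 called genes with the largest change from LZ to PD and the largest in the opposite direction; and the 5 genes most like Dnah8, Dnah17 and Dnah5. Symbols of the table are used (Dnaic2 for Dnai2, Ttc25 for Odad4, Armc4 for Odad2, Ccdc151 for Odad3, Efcab1 for Clxn, Wdr63 for Dnai3). Alternatives were other scalings, pseudocounts, filters, voom on recovered reads, the de novo table, other sets of libraries and a replicate block.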

Additional observations from a re-analysis of the deposited data

Results flagged for a closer look

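Outside the gene table, the authors' de novo table held a gene on the strand opposite to Dnah8, inside it and sharing exon bases with it (1 exon of 5125 bases, chr17:30870198-30875322, GRCm38). Its mean level was 3.29 ± 3.59 RPKM in LZ, 32.9 ± 3.45 in PD, 16.3 ± 2.30 in RS, 5.32 ± 2.46 in EES and 4.22 ± 0.168 in LES (SD, n = 3), with Pearson's r = 0.958 to Dnah8 over the 15 libraries. It shares 603 exon bases with Dnah8, and whether counting used strand is not given in the sources used here. A smaller gene opposite to Dnah3 (348 bases in 2 exons, chr7:120071224-120072074) had 0.233 ± 0.0885 RPKM in LZ, 0.213 ± 0.0718 in PD, 2.89 ± 0.111 in RS, 3.53 ± 4.90 in EES and 1.37 ± 0.0400 in LES, with r = 0.973 to Dnah3. Its EES mean rests on replicate 2, at 9.19 RPKM against 0.698 and 0.712. Both were picked out because the comparisons of the heavy chains do not use them and they rest on more reads than the 3 that a count of 0 allows, with at least 5 reads per library opposite Dnah3 and 524 opposite Dnah8. The study has no control samples, and no test was made.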

How the results depend on the processing

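The count of changed heavy chains from LZ to PD stayed at 8 or 9 and that from RS to EES at 6 to 8 under all alternatives run, and that over the 5 stages at 9 under those that tested 9. From PD to RS the count of 1 became 2 with scaling to reads in genes and without a filter, 4 with quantile normalization, with PD and RS fitted alone and without LZ replicate 3 and EES replicate 2, and 5 with each library centred on its median. With 1 library left out it ranged from 1 to 3 (3 without LZ replicate 3, and 2 without LZ replicate 1, EES replicate 2 or RS replicate 2). From RS to LES the count of 8 became 5 with quantile normalization, where 34.5% of tested genes fell, against 55.4%. Several small steps changed sign. Dnah3 from RS to EES became 0.69 with centring, 0.39 with quantile normalization, and ranged from -1.93 (without EES replicate 2) to 0.080 (without EES replicate 1) with 1 library left out. From LZ to PD it became -0.37 with scaling to reads in genes and ranged from -0.20 to 0.43 with 1 library left out (-0.16 without LZ replicate 2, -0.06 and -0.20 without PD replicates 2 and 3). Dnah6 from PD to RS became -0.14 with centring and -0.019 with quantile normalization, and ranged from -0.023 (without PD replicate 1) to 0.22 with 1 library left out. Dnah7a from RS to EES became 1.43 with centring, 0.66 with quantile normalization, 0.026 in the de novo table, 0.021 without LZ replicate 3 and EES replicate 2, and ranged from -0.28 to 0.12 with 1 library left out (0.02 without EES replicate 2, 0.12 and 0.09 without RS replicates 1 and 3). Dnah7a from RS to LES became 1.52, 0.88 and 0.022 under the former 3 and ranged from -0.29 to 0.12 (0.09 without LES replicate 2, 0.12 and 0.08 without RS replicates 1 and 3). Of 540 fold changes with 1 library left out, 521 kept their direction and side of the threshold, and 360 of 396 did so under the other alternatives. Leaving out a library of a stage outside the comparison cannot alter the fold change, only its p. For most of the 540, then, the direction was fixed in advance, and the 521 are no measure of stability. The cause of the changes in sign and call was not tested.

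The 3 ratios stayed past the threshold in all alternatives run, and the range of stage means of Dnah8 to Dnah5 and Dnah17 to Dnah5 was 4.75 and 4.48 with 0.1 RPKM added and 3.82 and 3.51 with 1 RPKM added. In the de novo table, however, Dnah5 was the assembled gene of 330 bases that covers 1.32% of its exon length, at a mean of 0.0514 RPKM in PD. That run therefore does not measure Dnah5 as a whole and bears only on Dnah17 to Dnah8. With 1 library left out, chosen after seeing the data, the range of stage means was 5.52 to 5.73 for Dnah8 to Dnah5, 5.18 to 5.52 for Dnah17 to Dnah5 and 0.62 to 0.96 for Dnah17 to Dnah8. A replicate block left the counts at 8, 1, 7 and 8 from LZ to PD, PD to RS, RS to EES and RS to LES. The replicate numbers did not pair the libraries across all stages: 4 of 30 correlations between equal numbers were over 0.1, and 6 of 15 libraries correlated best with their own number. Those 4 all lay between LZ and PD or between PD and RS, with 0.242 the highest. Whether libraries of equal number share animals cannot be read from these values. Depth limits Dnah5, with 40 to 123 reads per library in LZ and PD.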
